A study of Mus musculus with 12 samples.

Results

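The ABC transporter genes are the protein-coding genes of the mouse whose symbol is Abc followed by a subfamily letter from a to g and a number. The deposited gene table listed 50 of them. Of these, 41 had at least 10 counts in at least 3 of the 12 libraries, and all 41 were among the 19890 genes tested. The 9 others were Abca12, Abca14, Abca15, Abca16, Abca17, Abcb5, Abcb11, Abcc12 and Abcg8, with 8 to 49 counts over all libraries together. Just outside the count minimum were Abca17 with 49 counts and Abcg8 with 46 counts, and just inside it were Abcc8 with 127 counts, Abcb4 with 154 and Abcg4 with 172.

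RNA of whole mouse kidneys was taken at postnatal day 15, in 4 groups of 3 libraries. The groups are Pkd1 KO, Pkd1 control, Cep120 KO and Cep120 control. The KO libraries have homo in their titles and a genotype label of Pkd1 KO or Cep120 KO. The control libraries have het in their titles but WT as their genotype label, so whether they carry a single mutant copy of Pkd1 or Cep120 cannot be told from the labels. Both lines use Hoxb7-Cre, which is active in the ureteric bud and the collecting duct that grows from it, so most cells of a whole kidney are not its targets. Pkd1 encodes polycystin-1 of the primary cilium and Cep120 a centriole protein. The design text asks what changes in the kidney after Cep120 loss and how that compares with Pkd1 loss. Nothing in the labels ties a library to its own animal, and p-values here reflect library-to-library spread, which may be technical.

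Library totals ran from 23070688 to 31837958 counts. Pkd1 and Cep120 transcripts were not lower in their own KO libraries. Pkd1 was at 28.8 ± 6.69 library-size-scaled counts (CPM, with TMM factors) in Pkd1 KO libraries and 17.2 ± 3.998 CPM in Pkd1 controls, and Cep120 was at 17.9 ± 2.16 CPM in Cep120 KO libraries and 16.2 ± 2.505 CPM in Cep120 controls (SD, n = 3 each). The rise of Pkd1 passed the test (log2 fold change 0.74, standard error 0.20, edgeR adjusted p = 0.00952), and Cep120 was not called in its line. Which exons were deleted is not stated in these sources, and these values do not check the labels. Xist was under 1 CPM in all 3 Pkd1 KO libraries and in Cep120 KO 1 and 2, and at 53.6 to 193 CPM in the other 7 libraries. In the Pkd1 line, KO and absence of Xist therefore cannot be told apart. Cep120 controls 1 and 2 were the most alike of all pairs within a group, with a chi-squared per gene of 5.51 against 25.6 to 68.6.

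ABC transporters are membrane proteins that use ATP bound at a conserved pair of cassettes to move substrates across a membrane. Members of subfamilies E and F have the cassettes without a membrane part and work on ribosomes. In the kidney the family is known above all for the proximal tubule. There, solute carriers on the basolateral side take up organic anions from the blood, and apical ABC proteins pump them into the urine. Other members load cholesterol onto lipoproteins, import fatty acids into peroxisomes or serve mitochondria, lysosomes and potassium channels.

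Markers of the cell types a kidney can hold moved with the Pkd1 KO label, in both directions. Of all genes tested, 22.1% were called higher and 22.4% lower in Pkd1 KO, so a call of a single marker is common. All 7 proximal tubule markers were called lower in Pkd1 KO. Their summed level was 452 to 660 CPM in Pkd1 KO, against 3291 to 5276 CPM in Pkd1 controls. All 4 macrophage markers were called higher, with sums of 283 to 390 CPM in Pkd1 KO and 52.9 to 119 CPM in Pkd1 controls. All 4 principal cell markers were called higher, with sums of 1551 to 3074 CPM in Pkd1 KO and 447 to 709 CPM in Pkd1 controls. Of 4 mural and stromal markers, 2 were called higher, with sums of 1691 to 2278 CPM in Pkd1 KO and 367 to 561 CPM in Pkd1 controls. Most of that sum was Acta2, named after its values were seen, at 1775 ± 283 CPM in Pkd1 KO and 232 ± 68.1 CPM in Pkd1 controls (SD, n = 3 each), and the median of the 4 was 0.52 on the log2 scale. Other cell types fell beside the proximal tubule. All 4 T and B cell markers were called lower, with sums of 0.576 to 1.47 CPM in Pkd1 KO and 4.498 to 7.84 CPM in Pkd1 controls, and so were both red cell markers, with sums of 160 to 352 CPM in Pkd1 KO and 1377 to 3119 CPM in Pkd1 controls. Called lower were also 2 of 3 markers each of the thick ascending limb, the distal convoluted tubule and podocytes, and 3 of 4 of the endothelium. Of 4 intercalated cell markers 3 were called lower and 1 higher. In skeletal muscle 1 tested marker was called higher, and no adipocyte or urothelium marker was called. No summed marker level was at 0 in any library. Their part in the changes of the ABC transporter genes was not tested, and in whole tissue fewer cells of a type and less RNA per cell cannot be told apart. In Cep120 KO no marker of any list was called, but 0% of all genes tested were, so this does not set the markers apart. The median log2 fold changes of the lists there ran from -1.15 for adipocyte markers to 0.23 for mural and stromal markers.

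**Figure D1:**
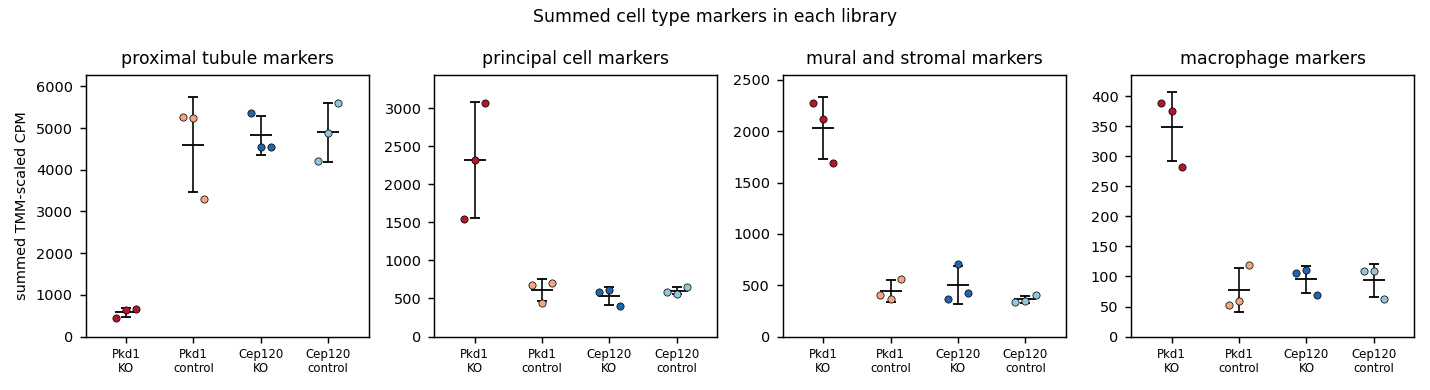
Summed TMM-scaled CPM of the markers of 4 cell types in each library (points), with the mean and SD of 3 libraries (bars), for Pkd1 KO, Pkd1 control, Cep120 KO and Cep120 control from left to right. Proximal tubule sums of 452 to 660 CPM in Pkd1 KO lie below those of Pkd1 controls, and macrophage sums of 283 to 390 CPM lie above.

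Levels of different genes were compared in the deposited TPM, which measure transcript abundance per length. Abcg2, an apical efflux pump for drugs and urate, had the highest mean of all members at 180 TPM over the 12 libraries, with a lowest value of 79.7 and a highest of 234. Abcd3, the major ABC protein of the peroxisome membrane, followed at 85.8 TPM, then Abcf1, which acts in translation initiation, at 51.9 TPM, and its relative Abcf2 at 36.4 TPM. Abcg2 was above Abcd3 in 12 of 12 libraries. Abcd3 was above Abcf1 in 9 of 12, the exceptions being in Pkd1 KO, where Abcf1 averaged 61.7 ± 7.08 TPM and Abcd3 55.1 ± 4.21 TPM (SD, n = 3). Abcf2 was above the next gene, the mitochondrial transporter Abcb8, in 6 of 12, and their order depended on the group. In Pkd1 KO Abcf2 averaged 45.5 ± 4.52 TPM and Abcb8 19.6 ± 0.20 TPM. In Pkd1 controls Abcf2 averaged 29.0 ± 3.86 TPM and Abcb8 32.2 ± 4.06 TPM (SD, n = 3 each). Of the 41 members, 13 averaged at least 10 TPM, 20 from 1 to 10 TPM and 8 less than 1 TPM.

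Abcg2 made up 16.0% to 21.4% of the summed TPM of the 41 members in Pkd1 KO and 28.3% to 38.6% in Pkd1 controls. Its share was 28.1% to 31.1% in Cep120 KO and 32.4% to 34.3% in Cep120 controls. The shares in Pkd1 KO did not overlap those of any other group. Changes of whole genes between groups were not read from TPM, because it depends on what else a library holds. The shares above are in TPM and carry that limit. By mean TPM 36 of 41 members were higher in Cep120 KO than in Cep120 controls, and by mean TMM-scaled CPM 20 of 41 were. All changes of whole genes below are therefore on the CPM scale of the test. Single transcripts below are in TPM, carry the same limit and were not tested.

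**Figure D2:**
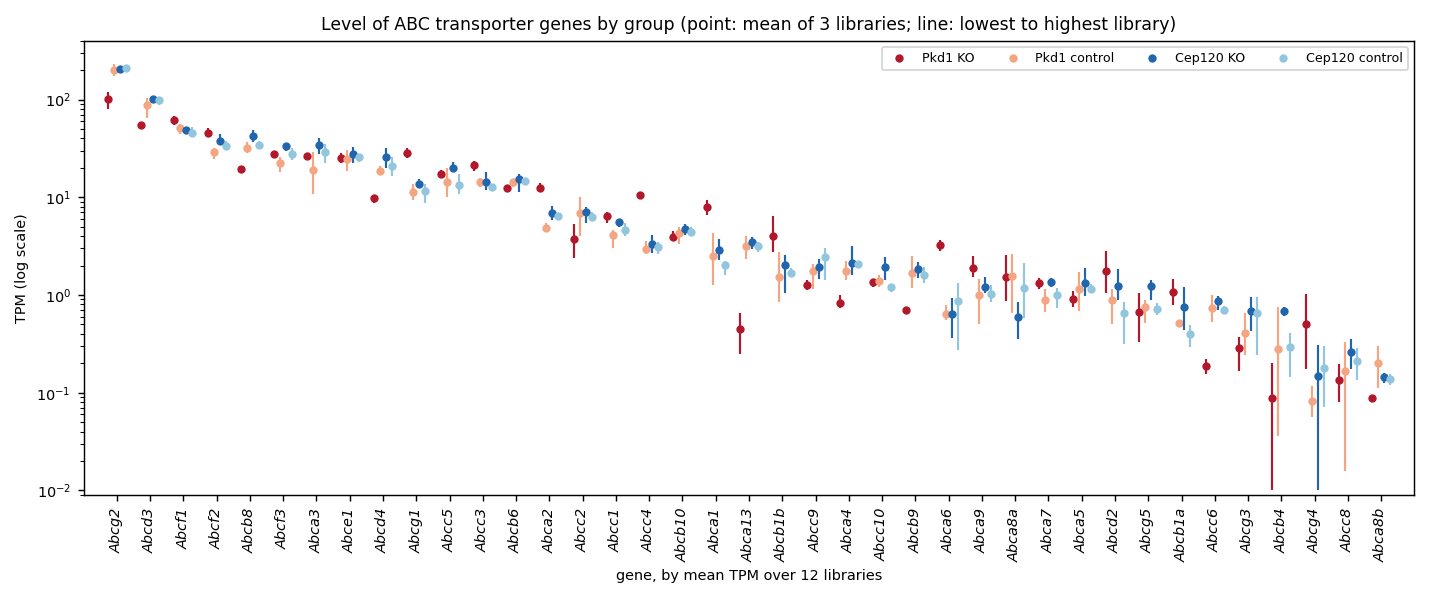
TPM of 39 members on a log scale, in order of mean TPM over 12 libraries, with the mean of 3 libraries as a point and the lowest to the highest library as a line, for Pkd1 KO, Pkd1 control, Cep120 KO and Cep120 control from left to right. Values under 0.01 TPM are drawn at 0.01. Levels run from 180 TPM for Abcg2 to under 1 TPM for the 8 weakest genes, and Abcg2 keeps the first rank in every group.

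In Pkd1 KO kidneys against Pkd1 controls, 11 members were higher, 12 were lower and 18 did not pass the threshold (edgeR quasi-likelihood test, Benjamini-Hochberg adjusted p under 0.05 over 19890 genes). Among all genes tested 22.1% were called higher, 22.4% lower and 44.4% in either direction. The members' shares were 26.8% higher, 29.3% lower and 56.1% in either direction. The median log2 fold change over the members was -0.09 and that of all genes -0.04. The 3 libraries of Pkd1 KO lay wholly above or below the 3 Pkd1 controls for 29 of 41 members, and for 53% of all genes tested. So much of the transcriptome moved in this comparison that a call by itself sets a member apart from few genes. Among the 23 members called, the control nearest to the KO values was Pkd1 control 3 for 11, control 2 for 7 and control 1 for 5. The same count was not made over all genes called, so it sets nothing apart for the members. Pkd1 control 3 had the highest macrophage sum and the lowest proximal tubule sum of the 3 controls, and a tie to the members was not tested. That library stood apart in genes detected as well, at 30979, against 23532 to 24213 in Pkd1 KO and 24297 and 25216 in the other Pkd1 controls. In the Cep120 line 31626 to 32705 genes were detected in KO and 31603, 30289 and 25652 in controls. Without Pkd1 control 3, 11 members were called higher and 11 lower.

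The number called higher rested on single libraries more than the number called lower. It was 7 without Pkd1 KO 1 and 7 without Pkd1 control 2, while the number called lower was 11 to 13 with any library left out. With presence of Xist as a term, 3 members were called higher and 7 lower, and the number of calls among all genes was 2002 in place of 8839. Xist presence varies within a group only in Cep120 KO. A call kept or lost with this term therefore cannot part Pkd1 KO from absence of Xist, here or below. The calls of Abca13, Abca2, Abca4, Abcb8, Abcb9, Abcc4, Abcc6, Abcd4, Abcg1 and Abcg2 were kept in every alternative in which they were tested, the Xist term included. Abcb9 and Abcc6 were too low to be tested under the filter of 5 CPM.

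**Figure D3:**
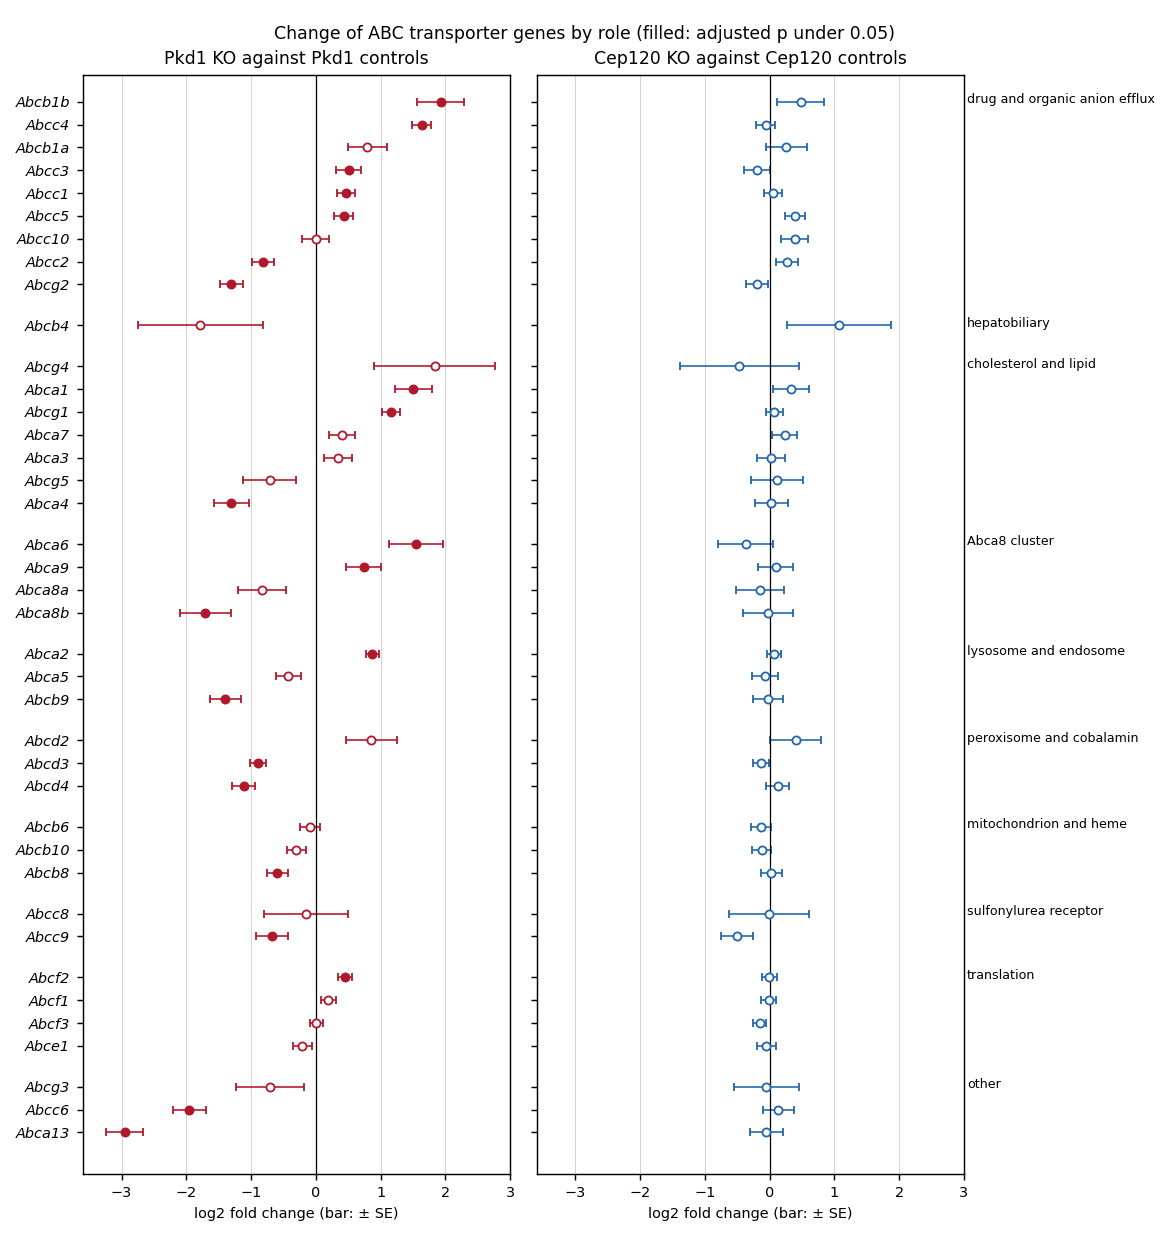
Log2 fold change with its standard error for 39 members, grouped by role, in Pkd1 KO against Pkd1 controls (left) and Cep120 KO against Cep120 controls (right), with filled points for an adjusted p under 0.05. In the Pkd1 panel 11 filled points lie to the right of 0 and 11 to the left, and in the Cep120 panel no point is filled.

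The pumps for drugs and organic anions moved in both directions in Pkd1 KO. Of 9 such members 5 were called higher and 2 lower, with a median log2 fold change of 0.47. Beside this and every count of a role or list below stand 22.1% of all genes called higher and 22.4% lower. Counts near those shares set a role or list apart from other genes in nothing. The falls among the pumps were in Abcg2 and Abcc2, and the largest rises in Abcb1b and Abcc4.

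Abcg2 (ENSMUSG00000029802) was at 110, 153 and 162 CPM in Pkd1 KO and 384, 403 and 262 CPM in Pkd1 controls. The groups did not overlap, and control 3 was the lowest control. The log2 fold change was -1.30 (standard error 0.17, edgeR adjusted p = 7.4e-05), or 2.47-fold lower. Cep120 KO had 282, 299.8 and 309 CPM and Cep120 controls had 347, 343 and 334 CPM. These groups did not overlap either, but the log2 fold change of -0.20 (SE 0.17) did not pass the test.

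The transcript table resolves Abcg2 further, in a description made after its values were seen. Abcg2-202, a protein-coding transcript, held 82.1% of the gene's mean TPM. It was at 62.4, 84.1 and 93.3 TPM in Pkd1 KO and 196, 166 and 145 TPM in Pkd1 controls. Abcg2-203, annotated as a retained intron, averaged 12.4 TPM in Pkd1 KO and 24.8 TPM in Pkd1 controls. Abcg2-210, a protein-coding transcript with 1.21% of the mean TPM, went the other way, at 3.82, 3.33 and 6.65 TPM in Pkd1 KO and 2.17, 0.617 and 0 TPM in Pkd1 controls. All 3 KO values of Abcg2-210 lay above all 3 controls, while those of Abcg2-202 lay below. In GRCm38 the annotated start of Abcg2-202 lies 18 bases past the downstream RefSeq start of the gene, and that of Abcg2-210 lies upstream of it, before another RefSeq start. Weak transcripts are split from the same reads as strong ones, so the value of Abcg2-210 is less certain than that of Abcg2-202.

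**Figure D4:**
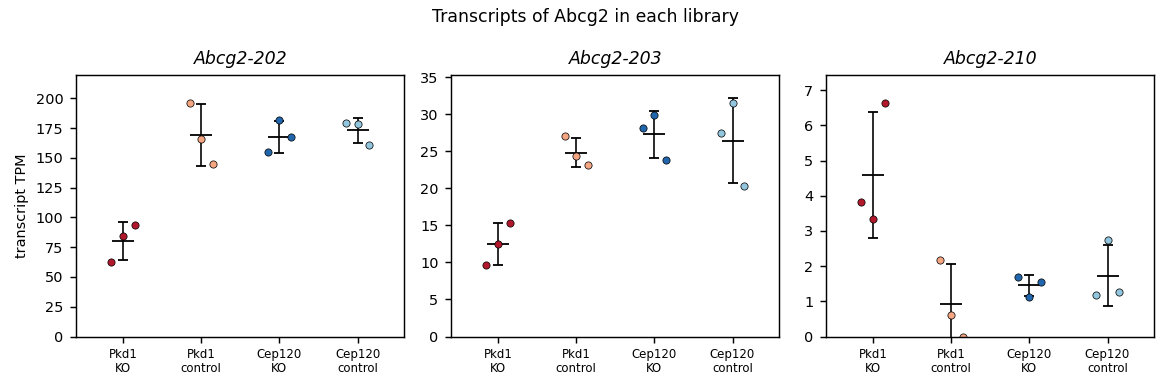
TPM of 3 transcripts of Abcg2 in each library (points) with the mean and SD of 3 libraries (bars), in Pkd1 KO, Pkd1 control, Cep120 KO and Cep120 control from left to right. The main transcript Abcg2-202 has 62.4 to 93.3 TPM in Pkd1 KO, below all controls, and Abcg2-210 has 3.33 to 6.65 TPM in Pkd1 KO, above all 3 Pkd1 controls.

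Abcc2, which exports conjugated organic anions into urine and bile, was at 15.3, 23.2 and 14.2 CPM in Pkd1 KO and 32.05, 27.4 and 33.5 CPM in Pkd1 controls. All KO values were below all controls, with a log2 fold change of -0.82 (standard error 0.18, edgeR adjusted p = 0.00243). With the Xist term the adjusted p was 0.125. Abcc2 was among the 4 members with the smallest p in the Cep120 line, on the opposite side of 0, but was not called there. It was at 31.6, 42.7 and 35.8 CPM in Cep120 KO and 32.2, 30.4 and 29.0 CPM in Cep120 controls, which overlap (log2 fold change 0.27, SE 0.17).

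Abcc4, an apical exporter of urate and cyclic nucleotides, had the smallest p of all members. It was at 42.9, 39.8 and 47.3 CPM in Pkd1 KO and 13.5, 12.1 and 16.3 CPM in Pkd1 controls, with no overlap and little spread in either group. The log2 fold change was 1.63 (standard error 0.15, edgeR adjusted p = 4.37e-06), or 3.10-fold. Cep120 KO had 12.04, 16.2 and 14.9 CPM and Cep120 controls 14.99, 16.3 and 13.8 CPM. So the change lay in the Pkd1 line, and the difference between the effects was 1.70 (standard error 0.21, edgeR adjusted p = 0.000133).

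Abcb1b, a rodent P-glycoprotein that expels many drugs, was at 8.90, 8.96 and 20.2 CPM in Pkd1 KO and 2.96, 2.51 and 4.498 CPM in Pkd1 controls. Replicate 3 was the highest of each group, and the groups did not overlap. The log2 fold change was 1.93 (standard error 0.37, edgeR adjusted p = 0.00101), the largest rise among called members, and with the Xist term the adjusted p was 0.191. Its close copy Abcb1a averaged 3.51 ± 0.52 CPM in Pkd1 KO and 2.02 ± 0.25 CPM in Pkd1 controls (SD, n = 3 each), with an edgeR adjusted p of 0.0506. It was called in 5 alternatives, among them voom (adjusted p = 0.0369). The copies could exchange reads, so the split between them is uncertain.

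The exporters known from the basolateral membrane had smaller folds. Abcc1, which carries glutathione conjugates, had a log2 fold change of 0.47, Abcc3, which carries glucuronides, 0.51 and Abcc5, which carries cyclic nucleotides, 0.43, all called higher by edgeR with adjusted p of 0.0148, 0.0478 and 0.0333. These calls were fragile. That of Abcc1 ended without Pkd1 KO 1 (adjusted p = 0.0687), without Pkd1 KO 3 (0.0567) and without Pkd1 control 2 (0.0594). That of Abcc3 ended in 17 of 24 alternatives, with an adjusted p of 0.195 without Pkd1 control 3. That of Abcc5 ended in 10 of 24, with 0.121 without Pkd1 control 2.

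Abcc5 was at 40.8, 37.8 and 40.4 CPM in Pkd1 KO and 27.6, 24.5 and 36.2 CPM in Pkd1 controls. It was also the member with the smallest p in the Cep120 line, at 35.1, 42.2 and 33.7 CPM in Cep120 KO and 27.1, 32.2 and 25.5 CPM in Cep120 controls. All KO values lay above all controls of the same line in both lines. In the Cep120 line its log2 fold change was 0.39 (SE 0.15, unadjusted p = 0.0225 and adjusted p = 0.757 in edgeR), so it was not called there. Abcc10, a relative that pumps lipophilic drugs, was at 5.45, 4.80 and 5.49 CPM in Pkd1 KO and 4.66, 5.32 and 5.78 CPM in Pkd1 controls, which overlap. In the Cep120 line it was at 8.27, 6.74 and 4.97 CPM in KO and 4.49, 4.88 and 5.92 CPM in controls, for a difference of 0.38 on the log2 scale (SE 0.21).

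Sequence before the transcription start is shown for some of the members with large or well measured changes and a RefSeq start. It is given as 250 bases 5′ to 3′ on the gene's strand in GRCm38.p6. Capitals mark 3 short motifs, the GC box GGGCGG, the CCAAT box CCAAT and the TATA box TATAAA, on either strand. Other such members are not shown, among them Abca2 and Abcd3, whose stretches hold none of the 3 motifs, and Abcb9, with 6 GC boxes. For the efflux pumps Abcc4, Abcb1b and Abcg2 the stretches are:
Abcc4, chr14:118706220-118706469, minus strand: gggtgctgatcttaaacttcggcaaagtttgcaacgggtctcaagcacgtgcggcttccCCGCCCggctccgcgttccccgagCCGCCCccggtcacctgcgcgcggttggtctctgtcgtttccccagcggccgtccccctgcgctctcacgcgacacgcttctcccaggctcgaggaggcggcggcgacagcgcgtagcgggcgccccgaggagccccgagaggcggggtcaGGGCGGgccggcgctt
Abcb1b, chr5:8797897-8798146, plus strand: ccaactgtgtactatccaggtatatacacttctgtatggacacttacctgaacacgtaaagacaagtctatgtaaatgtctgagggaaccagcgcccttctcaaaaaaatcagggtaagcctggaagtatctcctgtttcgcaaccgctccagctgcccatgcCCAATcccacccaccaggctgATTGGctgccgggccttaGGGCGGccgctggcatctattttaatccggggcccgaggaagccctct
Abcg2, chr6:58640296-58640545, plus strand: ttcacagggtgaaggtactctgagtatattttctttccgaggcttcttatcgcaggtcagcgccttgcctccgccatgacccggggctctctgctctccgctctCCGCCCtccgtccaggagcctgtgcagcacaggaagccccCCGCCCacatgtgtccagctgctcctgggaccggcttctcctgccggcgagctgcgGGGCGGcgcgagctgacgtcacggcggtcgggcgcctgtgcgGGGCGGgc
The Abcg2 stretch is that of the downstream start, 18 bases before Abcg2-202. It holds 4 GC boxes and that of Abcc4 holds 3. Abcc4 has another RefSeq start, downstream, whose stretch holds no GC box, and the stretches of the other starts of Abcg2 hold 0 and 2. That of Abcb1b holds 1 GC box and 2 CCAAT boxes. RefSeq gave 35 such stretches for 29 of the 41 members. The GC box was in 20 of the 35 and in 32.7% of the 32851 stretches of all genes, the CCAAT box in 8 and in 33.9%, and the TATA box in 4 and in 12.4%. The antioxidant response core TGACNNNGC was in 4 of the members' 35 stretches and in 10.2% of all, and the nuclear receptor half-site AGGTCA in 6 and in 14.02%. The E-box CACGTG was in 4 and in 6.02% of all, and the palindrome TGACGTCA in 2 and in 1.55%. No member's stretch held TGANTCA or GTTAAT, which 6.75% and 6.43% of all stretches hold. A match is a run of letters and was not tested as a site.

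Most genes of organic ion uptake carriers and their partners were lower in Pkd1 KO. Of 9 tested genes on a list of organic ion uptake carriers and their partners, 8 were called lower in Pkd1 KO and none higher, and the median log2 fold change was -2.02. Slc22a8, a basolateral organic anion carrier, averaged 27.8 ± 6.32 CPM in Pkd1 KO and 216 ± 13.4 CPM in Pkd1 controls (SD, n = 3 each). Pdzk1, a scaffold of apical carriers, averaged 238 ± 56.0 CPM in Pkd1 KO and 1762 ± 471 CPM in Pkd1 controls. The proximal tubule markers given above fell alongside, with a median log2 fold change of -2.72. Slco1a1 was too low to test.

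Among 7 members that handle cholesterol and other lipids, 2 were called higher and 1 lower in Pkd1 KO. Abca1, which passes cholesterol to apolipoprotein A-I, was at 75.6, 67.7 and 52.2 CPM in Pkd1 KO and 18.4, 14.6 and 35.7 CPM in Pkd1 controls. Control 3 stood apart from the other controls towards the KO values, without reaching them. The log2 fold change was 1.51 (standard error 0.28, edgeR adjusted p = 0.000889), and with the Xist term the adjusted p was 0.123. In the Cep120 line Abca1 was at 19.5, 29.2 and 21.7 CPM in KO and 19.9, 20.1 and 15.8 CPM in controls, which overlap.

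Abcg1, which passes cholesterol to high-density lipoprotein, was at 149, 142 and 117 CPM in Pkd1 KO and 56.0, 61.9 and 64.9 CPM in Pkd1 controls. The groups were wide apart, with a log2 fold change of 1.16 (standard error 0.13, edgeR adjusted p = 2.69e-05), or 2.23-fold. Cep120 KO had 65.4, 69.2 and 61.5 CPM of it, and Cep120 controls 65.1, 70.0 and 51.6 CPM. Both genes are known to be abundant in macrophages, whose markers were higher in Pkd1 KO as given above, with a median log2 fold change of 2.33. The part of macrophages in the rises of Abca1 and Abcg1 was not tested. The stretch before the start of Abca1 has a TATA box 29 bases before the start and 2 GC boxes:
Abca1, chr4:53159896-53160145, minus strand: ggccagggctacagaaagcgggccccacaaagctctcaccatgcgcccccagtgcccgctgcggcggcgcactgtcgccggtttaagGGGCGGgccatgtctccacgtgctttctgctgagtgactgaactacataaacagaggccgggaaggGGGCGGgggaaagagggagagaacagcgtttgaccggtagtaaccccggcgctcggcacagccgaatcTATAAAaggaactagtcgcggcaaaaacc

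Abca4, a retinoid lipid transporter of photoreceptors, was at 2.03, 3.38 and 2.19 CPM in Pkd1 KO and 6.45, 6.58 and 5.82 CPM in Pkd1 controls. All KO values were under all controls, with a log2 fold change of -1.31 (standard error 0.27, edgeR adjusted p = 0.00168). Abca3, known for surfactant lipid in the lung, averaged 129 ± 6.44 CPM in Pkd1 KO and 102 ± 33.0 CPM in Pkd1 controls (SD, n = 3 each) and was not called (edgeR adjusted p = 0.214). Its controls spread from 70.8 to 137 CPM, and without Pkd1 control 3 the gene was called higher (edgeR adjusted p = 0.0306). Abca7, Abcg4 and Abcg5 were not called, with log2 fold changes of 0.40, 1.84 and -0.71 and standard errors of 0.20, 0.94 and 0.41.

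Of 12 cholesterol handling genes that work with Abca1 and Abcg1, 5 were called higher and 2 lower in Pkd1 KO, and the median log2 fold change was 0.68. Apoe, the lipoprotein of macrophages and other cells, averaged 3106 ± 756 CPM in Pkd1 KO and 1439 ± 221 CPM in Pkd1 controls (SD, n = 3 each). Soat1, which esterifies cholesterol, averaged 60.9 ± 1.77 CPM in Pkd1 KO and 33.0 ± 4.36 CPM in Pkd1 controls. Among 9 nuclear receptors and partners known to control ABC genes, 2 were called higher and 3 lower. Nr1h3, a sterol-sensing receptor known to drive Abca1 and Abcg1, had a log2 fold change of -1.47 (standard error 0.23, edgeR adjusted p = 0.000219). Its part in the changes of Abca1 and Abcg1 was not tested. Nr1i3, a xenobiotic receptor, had a log2 fold change of -1.82 (SE 0.31) at a mean of 0.837 CPM in Pkd1 KO and 2.95 CPM in Pkd1 controls.

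Members of the Abca8 cluster, neighbouring genes for lipid transporters of partly known function, went in opposite directions. Abca8b was at 0.440, 0.387 and 0.359 CPM in Pkd1 KO and 1.21, 0.904 and 1.78 CPM in Pkd1 controls, with no overlap. Its log2 fold change was -1.71 (standard error 0.40, edgeR adjusted p = 0.00392). Its neighbours Abca6 and Abca9 were called higher, with log2 fold changes of 1.55 and 0.74 (SE 0.42 and 0.27, edgeR adjusted p = 0.00926 and 0.041). With the Xist term the adjusted p was 0.214 for Abca8b and 0.678 for Abca6. The call of Abca9 ended in 11 of 24 alternatives, with an adjusted p of 0.201 without Pkd1 KO 1 and 0.138 without Pkd1 control 2. Abca8a had a log2 fold change of -0.83 (SE 0.37) and was not called. The main annotated transcript of Abca6 in these data, Abca6-202, is a processed transcript with no coding sequence, at 2.44 to 3.32 TPM in Pkd1 KO and 0.315 to 0.531 TPM in Pkd1 controls. The cluster consists of close copies, so its read assignment is uncertain.

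Of 3 members of lysosomes and endosomes, 1 was called higher and 1 lower. Abca2, a lipid transporter best known from the brain, was at 45.3, 42.0 and 47.1 CPM in Pkd1 KO and 25.2, 24.3 and 23.9 CPM in Pkd1 controls. The spread within each group was small beside the gap, and the log2 fold change was 0.87 (standard error 0.11, edgeR adjusted p = 3.56e-05). Abcb9, which moves peptides into lysosomes, was at 1.66, 1.71 and 1.76 CPM in Pkd1 KO and 4.01, 3.87 and 5.67 CPM in Pkd1 controls, with a log2 fold change of -1.40 (standard error 0.24, edgeR adjusted p = 0.000459). Abca5 had a log2 fold change of -0.42 (SE 0.20) and was not called. It was called without Pkd1 control 2 (edgeR adjusted p = 0.0448).

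Abcd3 and Abcd4 of subfamily D were lower in Pkd1 KO. Abcd3, second in mean TPM over all libraries, was at 121, 142 and 141 CPM in Pkd1 KO and 292, 227 and 235 CPM in Pkd1 controls. All KO values lay below all controls, with a log2 fold change of -0.90 (standard error 0.13, edgeR adjusted p = 0.000116), or 1.86-fold lower. With the Xist term the adjusted p was 0.0734. In the Cep120 line Abcd3 was at 249.02, 224 and 267 CPM in KO and 269, 281 and 260 CPM in controls, which overlap. Abcd4, which passes cobalamin out of lysosomes, was at 18.8, 20.2 and 15.4 CPM in Pkd1 KO and 35.7, 43.6 and 38.4 CPM in Pkd1 controls, with a log2 fold change of -1.11 (standard error 0.18, edgeR adjusted p = 0.000306). Abcd2, a peroxisomal importer of very long chain fatty acids, had a log2 fold change of 0.85 (SE 0.39) and was not called. It was called without Pkd1 KO 2 (edgeR adjusted p = 0.0338). Of 9 further peroxisome genes 2 were called higher and 3 lower. Scp2, a sterol carrier and thiolase, averaged 315 ± 10.7 CPM in Pkd1 KO and 643 ± 112 CPM in Pkd1 controls (SD, n = 3 each).

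Among mitochondrial members, Abcb8 was lower in Pkd1 KO. It had a log2 fold change of -0.59 (standard error 0.16, edgeR adjusted p = 0.00966) at a mean of 43.0 ± 2.33 CPM in Pkd1 KO and 64.9 ± 10.7 CPM in Pkd1 controls (SD, n = 3 each). Abcb10 and Abcb6, which act in heme metabolism, had log2 fold changes of -0.30 (SE 0.15) and -0.09 (SE 0.16) and were not called. Of 9 partner genes of mitochondrial iron and heme, 4 were called lower and none higher, with a median of -0.34. Slc25a39, a mitochondrial carrier, was at -1.05 (SE 0.20).

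Abcc9, a sulfonylurea receptor of potassium channels in vascular smooth muscle and pericytes, was at 6.4999, 6.86 and 7.82 CPM in Pkd1 KO and 12.7, 9.39 and 11.8 CPM in Pkd1 controls. The groups did not overlap, and the log2 fold change was -0.68 (standard error 0.25, edgeR adjusted p = 0.0435). The call ended in 10 of 24 alternatives, with an adjusted p of 0.121 without Pkd1 control 1. In the Cep120 line it was at 12.9, 7.45 and 12.1 CPM in KO and 16.8, 19.3 and 9.90 CPM in controls, which overlap (log2 fold change -0.50, SE 0.25). Of the 4 mural and stromal markers given above, 2 were called higher in Pkd1 KO and none lower, the opposite direction to Abcc9. Rgs5, another of the 4, named after its values were seen, averaged 139 ± 13.7 CPM in Pkd1 KO and 134 ± 20.7 CPM in Pkd1 controls (SD, n = 3 each) and was not called. Of the channel pores, Kcnj8 was not called (log2 fold change -0.02, SE 0.28) and Kcnj11 was called lower at a mean of 0.103 CPM in Pkd1 KO and 0.581 CPM in Pkd1 controls. Abcc8, the other receptor, was at 0.193 to 0.305 CPM in Pkd1 KO and 0.050 to 0.489 CPM in Pkd1 controls.

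Of 4 members of subfamilies E and F, 1 was called higher and none lower. Abcf2 was at 86.9, 91.1 and 103 CPM in Pkd1 KO and 72.2, 69.6 and 63.5 CPM in Pkd1 controls, above them in every library, with a log2 fold change of 0.45 (standard error 0.11, edgeR adjusted p = 0.00576). With the Xist term the adjusted p was 0.396. Cep120 KO had 76.4, 85.9 and 72.3 CPM of Abcf2 and Cep120 controls 72.0, 84.8 and 78.6 CPM, which overlap. Abcf1 was at 87.5, 94.0 and 96.6 CPM in Pkd1 KO and 83.5, 86.8 and 72.9 CPM in Pkd1 controls, and its log2 fold change of 0.19 (SE 0.12) did not pass. Of Abcf1, Cep120 KO had 92.7, 78.0 and 76.4 CPM and Cep120 controls 74.7, 80.7 and 94.7 CPM, which overlap as well. Abce1, which recycles ribosomes, and Abcf3 had log2 fold changes of -0.21 (SE 0.15) and 0.01 (SE 0.10), and the sign for Abcf3 turned to -0.03 with RLE and -0.08 with upper quartile scaling. Of 8 translation partners 2 were called higher and none lower. They were Gcn1 at 0.35 (SE 0.13) and Eif2s2 at 0.30 (SE 0.11).

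The deepest fall of any called member was in Abca13, a very large member of the A subfamily. It was at 3.15, 5.93 and 8.22 CPM in Pkd1 KO and 53.5, 41.1 and 39.5 CPM in Pkd1 controls. The highest KO value was far under the lowest control, with a log2 fold change of -2.96 (standard error 0.28, edgeR adjusted p = 6.52e-06), or 7.76-fold lower. Cep120 KO had 49.3, 34.4 and 43.4 CPM and Cep120 controls 36.8, 43.8 and 50.9 CPM, with no separation. The proximal tubule markers had a median of -2.72 on the same scale. The stretch before its start has 2 CCAAT boxes and no GC box:
Abca13, chr11:9191692-9191941, plus strand: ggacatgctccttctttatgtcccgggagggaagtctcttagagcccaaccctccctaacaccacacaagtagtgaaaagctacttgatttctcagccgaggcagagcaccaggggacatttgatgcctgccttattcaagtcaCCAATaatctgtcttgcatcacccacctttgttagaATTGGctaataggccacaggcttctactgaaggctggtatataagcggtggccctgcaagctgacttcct

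Abcc6, whose loss causes ectopic mineralization in humans and mice, was at 0.880, 0.644 and 0.718 CPM in Pkd1 KO and 2.996, 2.61 and 3.10 CPM in Pkd1 controls. The groups were wide apart in proportion, with a log2 fold change of -1.95 (standard error 0.26, edgeR adjusted p = 7.25e-05), or 3.87-fold lower. Of 6 other genes of mineralization 2 were called higher and 2 lower. Alpl, the alkaline phosphatase of the proximal tubule, averaged 67.6 ± 12.2 CPM in Pkd1 KO and 313 ± 91.1 CPM in Pkd1 controls, and Spp1, osteopontin, 9941 ± 1047 CPM in Pkd1 KO and 4128 ± 1550 CPM in Pkd1 controls (SD, n = 3 each). Abcg3 and the hepatobiliary phospholipid transporter Abcb4 were at 1 CPM or less on average in Pkd1 KO and were not called (log2 fold changes -0.71, SE 0.52, and -1.79, SE 0.96). Cftr, Tap1 and Tap2 belong to the same protein family under other symbols. Cftr, the chloride channel, was called lower at 1.56 ± 0.28 CPM in Pkd1 KO and 3.89 ± 1.07 CPM in Pkd1 controls, and the peptide transporters Tap1 and Tap2 were not called.

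**Figure D5:**
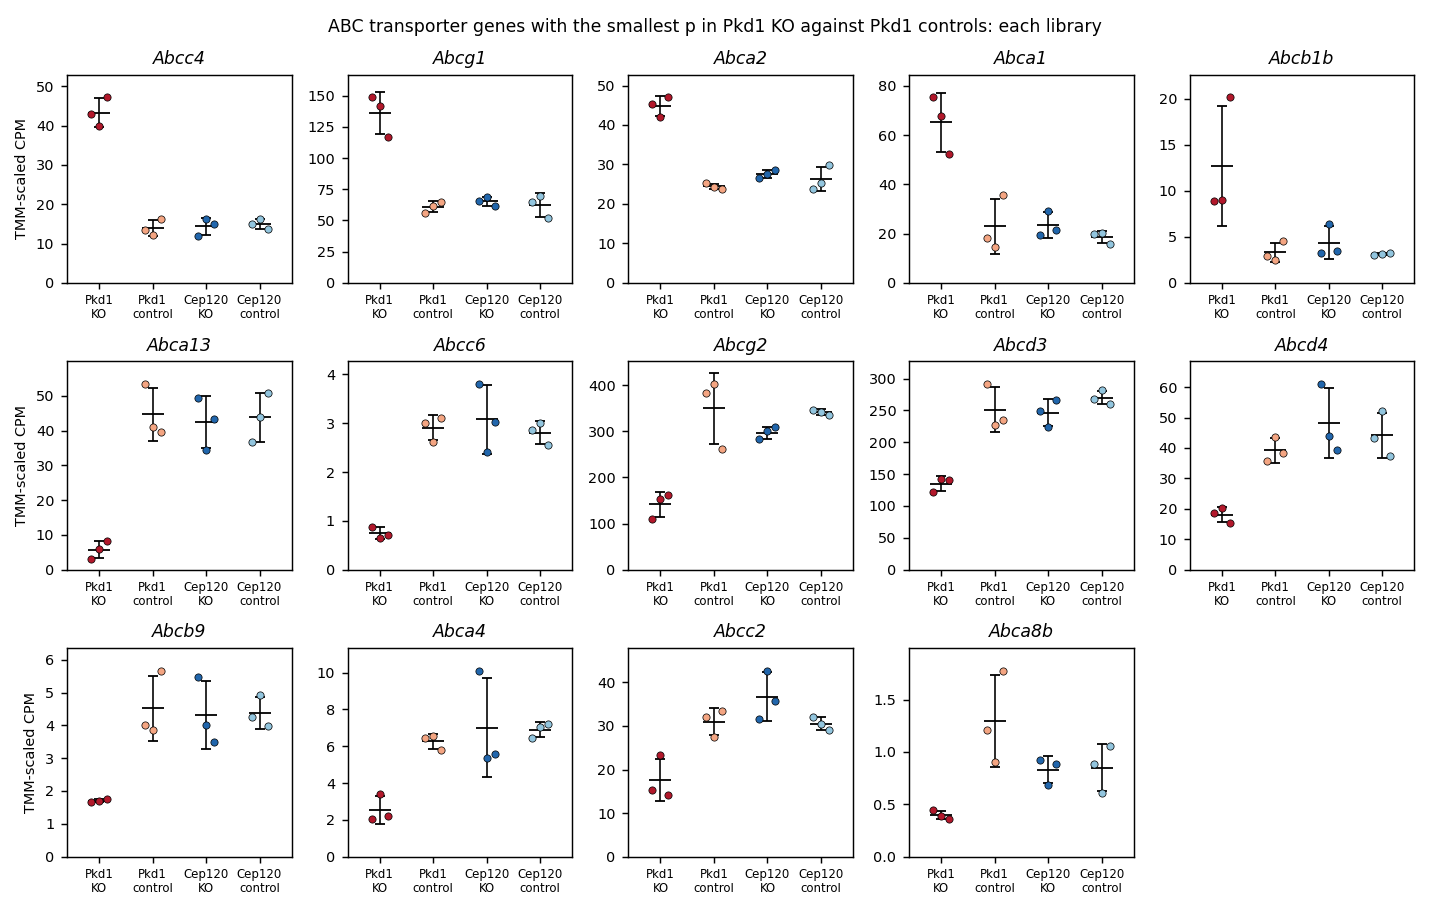
TMM-scaled CPM in each library (points), with the mean and SD of 3 libraries (bars), for the 14 members with the smallest p in Pkd1 KO against Pkd1 controls, with risers first and fallers after them. Groups run Pkd1 KO, Pkd1 control, Cep120 KO and Cep120 control from left to right. In each panel the 3 Pkd1 KO points lie apart from the 3 Pkd1 controls, from Abcc4 at 39.8 to 47.3 CPM to Abca13 at 3.15 to 8.22 CPM.

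In Cep120 KO kidneys against Cep120 controls, no member was called in either direction, and 0% of all genes tested were (edgeR). At an unadjusted p under 0.05, 1 of 41 members passed, which is 2.44%, against 6.04% of all genes. DESeq2 called no member and 21 genes in all, and voom called no member and no gene. With no filter on low counts, edgeR called 344 genes and no member. The members' log2 fold changes had a median of -0.005 and ran from -0.50 for Abcc9 to 1.07 for Abcb4, whose standard error was 0.80. All KO values lay above all controls for Abcb1b and Abcc5 and below them for Abcg2, which makes 3 of 41 members, against 16.5% of all genes tested. For Abcb1b this rested on narrow controls, with 3.23, 6.44 and 3.41 CPM in Cep120 KO and 3.02, 3.17 and 3.20 CPM in Cep120 controls. A change of the size seen in Abcc4, Abcg1 or Abca2 in the Pkd1 line would be several standard errors wide here. The standard errors of these genes were 0.15, 0.13 and 0.10. Smaller changes would stand out less. Abcc3, Abcc5 and Abca9 had log2 fold changes of 0.51, 0.43 and 0.74 in the Pkd1 line and standard errors of 0.19, 0.15 and 0.27 in the Cep120 line.

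The Pkd1 effect minus the Cep120 effect, tested as its own contrast, was called for 16 of 41 members, 6 higher and 10 lower. Among all genes tested 28.1% were called, 13.9% higher and 14.2% lower. The 4 members with the smallest p were Abcc4 at 1.70, Abca13 at -2.91 (standard error 0.38, edgeR adjusted p = 0.000204), Abcc6 at -2.08 (standard error 0.35, edgeR adjusted p = 0.00111) and Abcg1 at 1.09 (standard error 0.19, edgeR adjusted p = 0.00131). For each of the 4, the Cep120 effect alone was between -0.06 and 0.13. Abcc5 and Abcc9, with effects of like sign in both lines, had differences of 0.04 (SE 0.21) and -0.18 (SE 0.35). The Xist term took Abca1, Abca6, Abca8b and Abcf2 off the list of called differences. With a library left out or another setting, the call of Abca8b ended in 14 of 22 alternatives, that of Abca1 in 12 of 23, that of Abca6 in 9 of 22 and that of Abcf2 in 18 of 23.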

How the data were processed

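RNA sequencing of 12 whole-kidney libraries was analysed. Per the labels' protocols, RNA was taken in Trizol, and SMARTer Ultra Low reagents made the cDNA. Named in the submitters' processing notes are STAR 2.5.1a, featureCounts 1.4.6-p5, Salmon 0.8.2, Subread, bcl2fastq and the mm9 build, without saying which made which table, and the labels do not give the strand setting of the counting. The deposited gene table holds estimated counts, and for 21.6% of genes they are not whole, so they were rounded. TPM per gene and per transcript were used as the authors deposited them, and the transcript table holds only part of the transcripts. Of 55774 lines, 287 repeats were dropped.

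Counts were fitted in R 4.3.3 with edgeR 4.0.16 (filterByExpr, TMM, quasi-likelihood, 4 groups, 12 libraries), with p adjusted by Benjamini-Hochberg over 19890 genes at a threshold of 0.05. Standard errors derive from the fold change and its test. Library totals limit weak genes and cover counting error only. Alternatives were voom (limma 3.58.1), DESeq2 1.42.0, scaling by RLE or the upper quartile, other filters, a replicate block, terms for Xist and for genes detected (split at 28000), the libraries of a line alone, and libraries left out. Outside the replicate block, replicate numbers were not used to pair libraries.

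Values in every library are given for the 14 members with the smallest p in the Pkd1 comparison, the 4 in the Cep120 comparison, the 4 for the difference and the 4 highest in TPM, and of each further list the 2 genes with the smallest p are named. A few genes are counted but not reported here by name, in the figures either. Others named were chosen after their values were seen. The members and lists were chosen with earlier results of these data known. Promoter sequence and its coordinates are from RefSeq, and transcript starts from GENCODE, in GRCm38, not from the deposited files.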

Additional observations from a re-analysis of the deposited data

Results flagged for a closer look

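The effect of the Pkd1 KO differed from that of the Cep120 KO by a test of the difference itself for 16 ABC transporter genes (edgeR, adjusted p under 0.05), each given as the Pkd1 log2 fold change minus the Cep120 log2 fold change. Among them, it was lower for Abca13 (-2.91), Abcc6 (-2.08), Abca8b (-1.67), Abcb9 (-1.38), Abca4 (-1.33), Abcd4 (-1.24), Abcg2 (-1.10), Abcc2 (-1.08) and Abcd3 (-0.77). It was higher for Abcf2 (0.46), Abca2 (0.80), Abcg1 (1.09), Abca1 (1.17), Abcc4 (1.70) and Abca6 (1.92). Adjusted p-values in edgeR ran from 0.000133 for Abcc4 to 0.0476 for Abcf2. Of all genes tested, 28.1% were called for this difference, 13.9% higher and 14.2% lower. The call ended in 18 of 23 alternatives for Abcf2, in 14 of 22 for Abca8b, in 12 of 23 for Abca1 and in 9 of 22 for Abca6. In the Pkd1 line these genes moved beside the cell type markers and absence of Xist, and their part was not tested.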

How the results depend on the processing

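Counts of members called in Pkd1 KO were 11 higher and 12 lower. They were 7 higher with a filter of 5 CPM, which left 29 members, and 3 higher and 7 lower with presence of Xist as a term, which varies within a group only in Cep120 KO. Leaving out a library gave 7 to 12 higher and 11 to 13 lower. For the difference of effects, 6 higher and 10 lower became 3 higher with the 5 CPM filter and 3 higher with the Xist term, and leaving out a library gave 3 to 6 higher and 8 to 10 lower. With the replicate block they were 9 and 11 in Pkd1 KO and 4 and 8 for the difference. Same-numbered correlations were -0.136 to -0.0432 in the Pkd1 line and -0.054 to 0.178 in the Cep120 line. Different-numbered ones were -0.0504 to 0.129 and -0.2 to 0.11. With 3 libraries in a group, these values cannot settle whether the numbers pair the libraries. In the Cep120 comparison the counts were 0 in all alternatives run. Members higher by mean TPM in Cep120 KO numbered 36, and by CPM 20.

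Signs turned for members that were not called. In the Pkd1 comparison Abca3 had a log2 fold change of -0.0405 with the Xist term. Abcc10 had 0.00258 with no filter, 0.0729 without replicate 3 of both control groups, 0.00628 with voom and -0.0810 to 0.0497 with a library left out. Abcc8 had 0.00157 with the replicate block, 0.107 with the Xist term, 0.0911 with voom and -0.592 to 0.498 with a library left out. Abcf3 had -0.0262 with RLE, -0.0788 with upper quartile scaling, -0.0441 with 5 CPM, -0.0613 without replicate 3 of both control groups, -0.0343 with the detected-gene term, -0.0306 within the line, -0.0255 with DESeq2 and -0.0842 to 0.0788 with a library left out. In the Cep120 comparison Abcc10 had -0.0377 with the Xist term. The cause was not tested.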
